A study of Mus musculus with 30 samples.

Results

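Nuclear genes of the oxidative phosphorylation (OXPHOS) system were followed in primordial germ cells of the mouse embryo, from which oocytes and spermatozoa descend. They were chosen by symbol, from names that start with Nduf, Sdh, Uqcr, Cox4 to Cox8 or Atp5. After Nduf the name had to go on with a, b, c, s or v and a number, which leaves out the Ndufaf assembly factors. Each gene was read on the probe set with its highest mean. This gave 85 of the 19937 genes with a probe set of their own. The 85 genes were 33 of complex I, 4 of complex II, 8 of complex III, 19 of complex IV and 17 of the ATP synthase, plus 4 assembly factors of complex II (Sdhaf1 to Sdhaf4) that share the Sdh name. Ndufa4 was counted with complex IV, where its protein belongs, and Ndufa4l2 was placed with it by name. All 85 passed the filter on low signals, which kept 15180 genes. Cox7c and Ndufb4 match the names but lie only on probe sets of several genes, and they were not analysed here.

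In the inner mitochondrial membrane, complex I (NADH dehydrogenase) and complex II (succinate dehydrogenase) pass electrons to ubiquinone, complex III (cytochrome bc1) passes them to cytochrome c, and complex IV (cytochrome c oxidase) passes them to oxygen. Complexes I, III and IV pump protons, and the ATP synthase uses the returning protons to make ATP. A few central subunits are made inside the mitochondrion from its own genome and were not analysed here, and the other subunits are encoded in the nucleus and imported. Some complex IV subunits have a partner isoform made mainly in testis, muscle, heart or lung.

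Per the labels' protocols, gonads of embryos carrying the Oct4(deltaPE)-GFP transgene, a germ cell reporter, were dissociated with trypsin, GFP-positive cells were sorted, and RNA of 500 cells was amplified and hybridised to Affymetrix arrays. All embryos were of mixed 129/Sv and C57BL6J background. The genotypes were Ring1+;Rnf2+ (control) and Ring1+;Rnf2delta (Rnf2delta), where Rnf2 and Ring1 encode related ubiquitin ligase subunits of Polycomb repressive complex 1, a repressor of many genes. The labels do not name the Cre line or the time of deletion. Control females and control males were sampled at E11.5, E12.5 and E13.5 (embryonic days), and Rnf2delta females and males at E11.5 and E12.5, with 3 arrays in each of the 10 groups. Whether the 3 arrays of a group stand for separate embryos or litters is not stated, so a p-value here sets a difference against a spread that may be technical only. In sorted bulk RNA, fewer cells of a kind and less RNA per cell cannot be told apart.

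The promoters of 5 of these genes, whose values come up repeatedly, are shown for reference: Ndufa8 (complex I), Sdhb (complex II), Uqcrc1 (complex III), Atp5pb (ATP synthase) and Cox7a1 (complex IV). Each run covers 250 bases before to 50 after the annotated start in RefSeq's mouse assembly GRCm38.p6, reads 5′ to 3′ on the gene's own strand, and carries in capitals any match to 5 short motifs. The motifs were that of NRF1 (10 letters with 1 free base, seen in capitals in Ndufa8 and Uqcrc1), CCGGAAG (GABPA), AAGATGGC (YY1), TTCCCGC (E2F) and CACGTG (E-box), searched on both strands.
Ndufa8, chr2:36049289-36049588, minus strand: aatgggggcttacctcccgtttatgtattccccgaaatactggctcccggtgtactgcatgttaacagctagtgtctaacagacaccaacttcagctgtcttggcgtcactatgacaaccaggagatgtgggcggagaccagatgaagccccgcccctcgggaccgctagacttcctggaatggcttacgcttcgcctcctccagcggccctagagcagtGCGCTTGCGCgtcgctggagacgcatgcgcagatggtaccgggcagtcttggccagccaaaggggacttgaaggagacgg
Sdhb, chr4:140961021-140961320, plus strand: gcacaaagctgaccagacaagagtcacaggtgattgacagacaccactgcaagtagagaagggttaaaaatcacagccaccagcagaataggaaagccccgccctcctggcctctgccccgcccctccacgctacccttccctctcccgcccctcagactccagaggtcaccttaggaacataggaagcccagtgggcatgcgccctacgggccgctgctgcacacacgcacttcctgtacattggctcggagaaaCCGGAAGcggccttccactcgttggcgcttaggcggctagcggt
Uqcrc1, chr9:108936398-108936697, plus strand: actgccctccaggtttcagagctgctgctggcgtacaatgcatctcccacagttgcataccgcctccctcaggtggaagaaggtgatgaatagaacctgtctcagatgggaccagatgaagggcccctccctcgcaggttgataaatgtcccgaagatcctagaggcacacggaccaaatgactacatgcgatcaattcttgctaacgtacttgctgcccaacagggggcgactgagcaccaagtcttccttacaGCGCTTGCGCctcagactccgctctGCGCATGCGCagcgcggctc
Atp5pb, chr3:105959214-105959513, minus strand: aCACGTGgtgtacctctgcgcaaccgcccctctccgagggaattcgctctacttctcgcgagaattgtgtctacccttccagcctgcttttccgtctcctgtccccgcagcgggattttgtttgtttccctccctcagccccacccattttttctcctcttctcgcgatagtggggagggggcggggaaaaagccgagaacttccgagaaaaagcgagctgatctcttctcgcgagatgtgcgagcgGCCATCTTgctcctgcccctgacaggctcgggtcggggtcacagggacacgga
Cox7a1, chr7:30183921-30184220, plus strand: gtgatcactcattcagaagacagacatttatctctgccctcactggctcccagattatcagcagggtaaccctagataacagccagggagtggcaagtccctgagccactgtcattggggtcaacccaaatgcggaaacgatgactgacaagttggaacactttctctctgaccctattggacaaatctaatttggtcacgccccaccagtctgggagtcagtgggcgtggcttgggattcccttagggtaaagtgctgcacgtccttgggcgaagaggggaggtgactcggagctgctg
The Ndufa8 promoter held the NRF1 motif on the reverse strand, and Uqcrc1 held it first on the reverse strand and then on both. Sdhb held the GABPA motif, Atp5pb held the E-box and, on the reverse strand, the YY1 motif, and Cox7a1 held none of the 5.

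Of the 85 genes, 70 had an entry in this promoter table. The NRF1 motif lay in 17 of these 70 promoters (24.3%), against 6.6% of the 17491 protein-coding promoters of the same length. The GABPA motif lay in 19 (27.1%, against 11.9%) and the YY1 motif in 9 (12.9%, against 3.22%). The E2F motif (10%, against 5.99%) and the E-box (8.57%, against 7.9%) lay nearer to the share of all coding promoters, as did the letters CCAAT, which were counted but not capitalised (42.9%, against 39%). Of the 70, 39 (55.7%) held at least 1 of the NRF1, GABPA or YY1 motifs. The median number of CpG dinucleotides was 19 in these promoters and 13 over the coding ones, and the first 3 motifs were not compared at matched CpG content. A match describes letters only. Of the 29 with a promoter that rose in females from E12.5 to E13.5, 17 held 1 of the 3 motifs, and of the 40 that did not pass the test, 21 did.

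Across the 10 groups the typical OXPHOS gene varied about as much as other genes, with fewer wide swings. Group means of a gene spanned 0.62 on the log2 scale in the median gene, against 0.59 over all genes tested, and 11 of the 85 (12.9%) spanned more than 1, against 18.7% of all genes. The widest spans were those of Cox8c (2.13), Ndufs5 (1.88), Ndufa8 (1.51), Atp5d (1.46) and Atp5pb (1.23). The narrowest was that of Cox4i2 (0.19), a lung isoform whose mean log2 signal of 2.37 lay below the median of every array. Within a group, the 3 arrays differed with a median SD of 0.14 over these genes and 0.20 over all genes. The lowest group mean fell in E12.5 control females for 36 of the 85 genes, and the highest fell in E13.5 control females for 27.

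**Figure D1:**
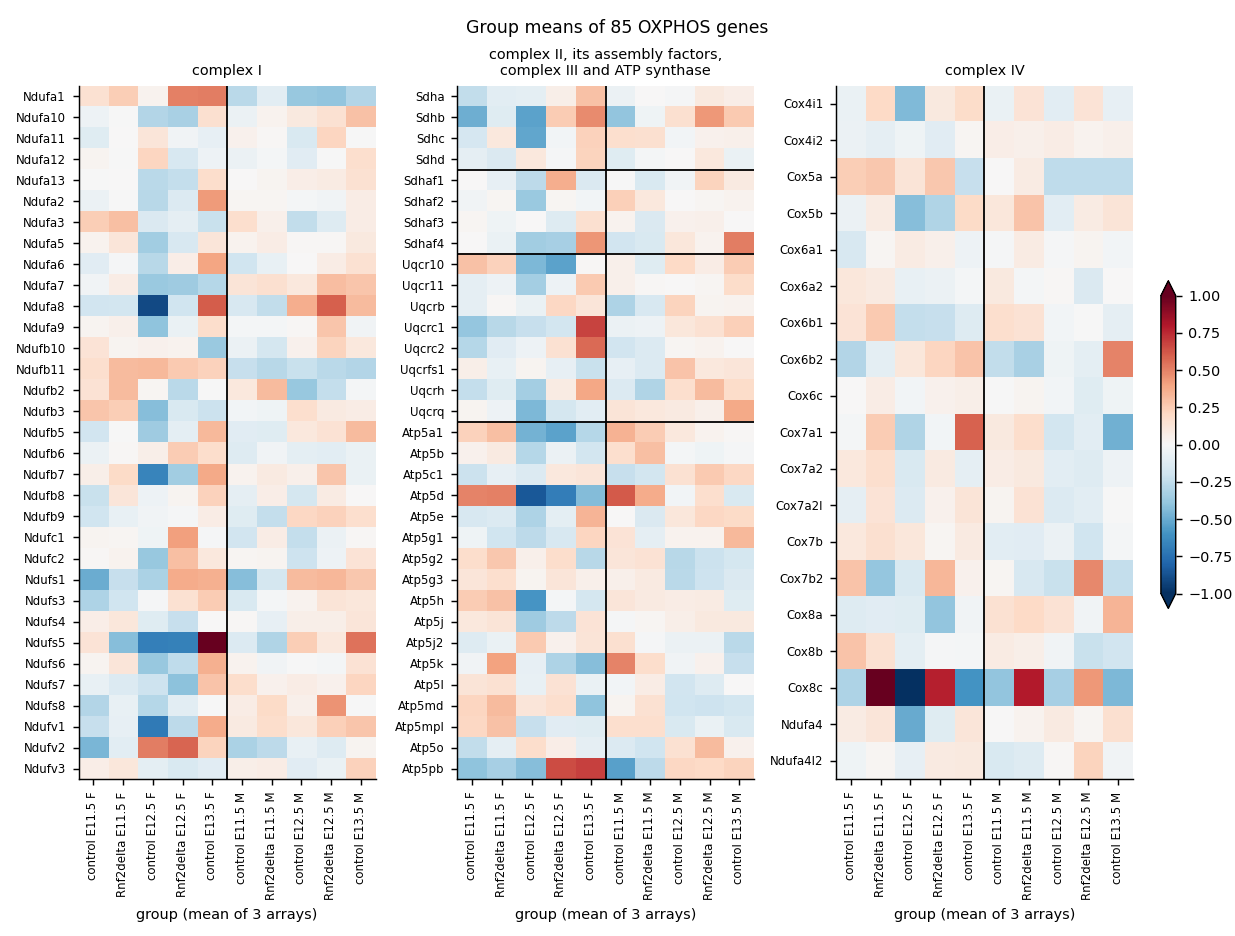
Colour map of 85 OXPHOS genes (rows, by complex) in 10 groups (columns, each the mean of 3 arrays; F female, M male), coloured by the deviation from the gene's mean over groups on the log2 scale, capped at 1. The column of E12.5 control females holds the lowest mean of 36 genes and that of E13.5 control females the highest of 27; Cox8c is high in the Rnf2delta columns.

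The arrays were of similar overall signal, with array medians between 2.52 and 2.66 on the log2 scale, and 51 of the 85 genes had a mean above 8. Rnf2 signals ranged from 4.13 to 5.79 (median 5.23) on the 18 control arrays and from 3.81 to 5.0005 (median 4.28) on the 12 Rnf2delta arrays. By limma with Benjamini-Hochberg adjustment, Rnf2 did not pass at E11.5 (-0.61, adjusted p = 0.199 in females, and -0.31, 0.802 in males). It passed at E12.5 (-0.63, adjusted p = 0.0294 in females, and -1.03, 0.00224 in males). The part of the gene that was deleted is not given, so the probe set may lie outside it. Germ cell markers averaged 6.72 to 7.13 by group, and 6 lists of somatic markers averaged 1.97 to 3.17, which is near the array median. The highest single array reached 5.21 for the 3 of 5 erythroid markers with a probe set, in an E12.5 Rnf2delta male. Over the arrays Hbb-y reached 9.715, while Hbb-bh1 and Alas2 reached at most 3.11 and 3.45. List averages hide single genes: Pecam1 in the endothelial list averaged 6.71 (6.11 to 7.45 over the arrays). The other endothelial markers averaged 1.81 to 2.25. The 6 arrays of E12.5 females stood apart in how well they matched their own group: their mean correlation with the other arrays of the group was 0.964 to 0.978, against 0.983 to 0.990 on the other 24. The interquartile range of their deviations from the gene medians was 0.361 to 0.533, which overlaps the 0.248 to 0.390 of the other 24. The 3 control arrays among them had 75th percentiles of signal of 4.07, 4.22 and 4.16, against 4.22 to 4.43 on the other 27. The median OXPHOS deviation on those 3 arrays was -0.30, -0.09 and -0.18, and on the other 27 it lay between -0.07 and 0.13. These arrays enter the E12.5 genotype comparison in females, both stage steps in females and the E12.5 sex comparison, so those 4 share them. Their part in each result was not tested, and comparisons between other groups are given beside those that use them; in these, the arrays enter the pooled spread only.

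**Figure D2:**
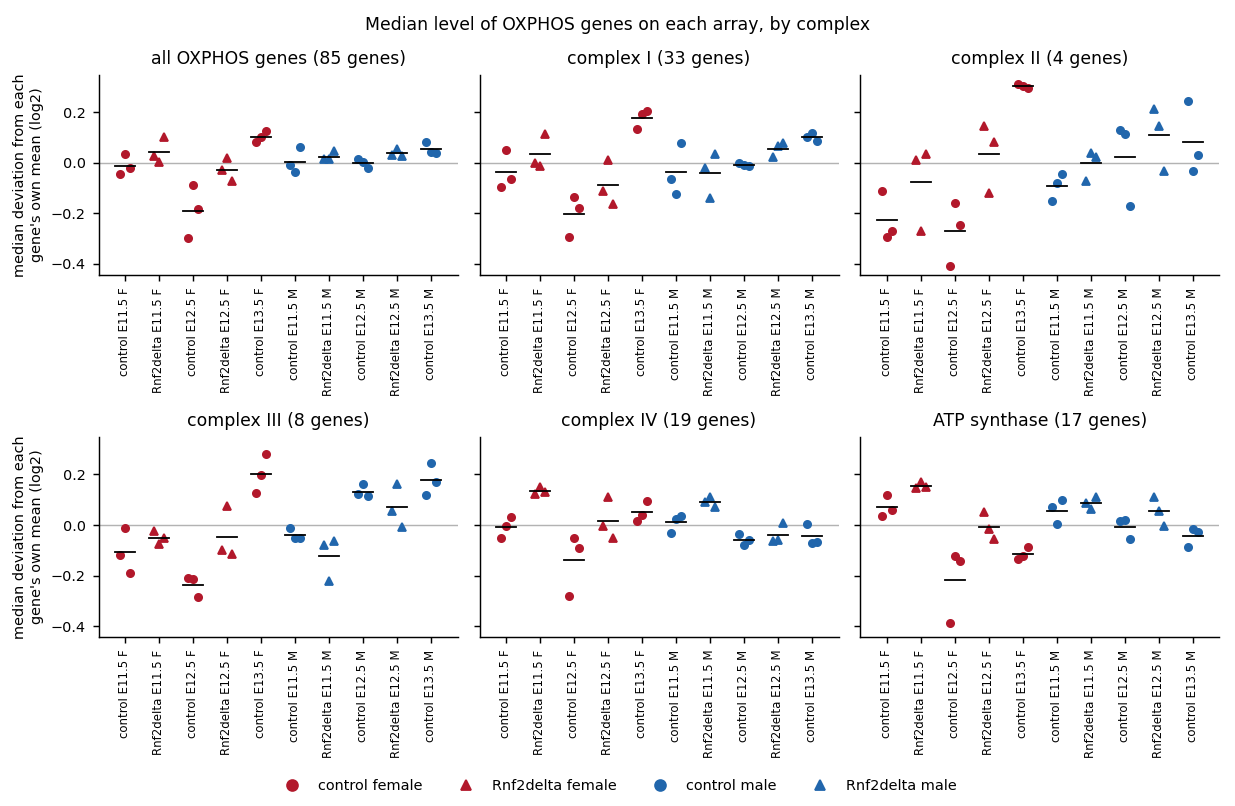
Median deviation of the genes of each complex from their own means (log2, vertical axis) on each of 30 arrays, by group (horizontal axis; 3 points a group, black bars are group means, circles control, triangles Rnf2delta, red female, blue male). All 3 arrays of E12.5 control females lie below 0 in each panel, complex II is highest in E13.5 control females, and the ATP synthase is below 0 in E13.5 of both sexes.

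With Rnf2 deleted, 1 complex IV gene was higher at E11.5 in both sexes: Cox8c, an isoform of subunit 8 known from testis. In E11.5 females its log2 signals were 3.71, 3.86 and 4.23 in controls and 5.13, 5.26 and 5.63 in Rnf2delta. In E11.5 males they were 4.08, 4.09 and 3.36 in controls and 4.99, 4.78 and 5.33 in Rnf2delta. The genotypes did not overlap in either sex. The difference was 1.41 ± 0.22 (SE) in females (limma, Benjamini-Hochberg adjusted p = 0.000614) and 1.19 ± 0.22 in males (adjusted p = 0.00432). It was the only OXPHOS gene past the threshold of 0.05 in either comparison, where 0.54% of all genes in females and 0.679% in males were called higher. The male call was lost without replicate 3 of the controls or replicate 3 of Rnf2delta (adjusted p up to 0.0652); the female call stayed in every setting tried. Of the other 84 genes, 0 passed, and the median over all 85 was 0.07 in females (0.02 over all genes) and 0.02 in males (-0.0017 over all genes). At an unadjusted p under 0.05, 10 genes in females (11.8%, against 6.95% of all genes) and 3 in males (3.53%, against 7.82%) were counted, Cox8c included.

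At E12.5, 14 OXPHOS genes were higher in Rnf2delta females than in control females and 0 were lower. They were 6 of 33 complex I genes, 2 of 4 in complex II, 1 of 8 in complex III, 3 of 19 in complex IV and 2 of 17 in the ATP synthase. Over all genes 7.73% were called higher and 2.16% lower, and among the 516 genes with a mean log2 signal above 8, 51 of the 85 among them, 9.88% were called higher. Cox8c again differed most, with 3.04, 3.16 and 3.42 in controls and 4.83, 4.67 and 5.55 in Rnf2delta, a difference of 1.81 ± 0.22 (adjusted p = 4.67e-06). The genotypes did not overlap, and the control mean of 3.21 was the lowest of the 10 group means.

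The other 13 were compared with the same control arrays that stood apart. Atp5pb, the b subunit of the ATP synthase's outer stalk, was at 6.89, 7.50 and 7.21 in controls and at 8.63, 8.26 and 7.95 in Rnf2delta (difference 1.08 ± 0.18, adjusted p = 0.000299). Sdhb, the iron-sulfur subunit of complex II, was at 7.16, 7.86 and 7.49 in controls and at 8.32, 8.38 and 8.17 in Rnf2delta (0.79 ± 0.13, adjusted p = 0.000356). Ndufa8, an accessory subunit of complex I, was at 5.60, 5.62 and 6.11 in controls and at 6.48, 6.52 and 6.46 in Rnf2delta (0.71 ± 0.13, adjusted p = 0.000562). The groups did not overlap for these 3 genes. Ndufc2 (0.68), Ndufs1 (0.68), Atp5h (0.58), Cox4i1 (0.54), Sdhc (0.49), Ndufa1 (0.47), Ndufc1 (0.46), Ndufv1 (0.44), Uqcrh (0.42) and Ndufa4 (0.39) also passed. When only the 6 arrays compared were fitted, Cox8c alone passed, and with arrays weighted by quality Cox8c, Atp5pb, Sdhb, Ndufa8 and Cox4i1 did. Without replicate 1 of the controls 9 genes passed, and without replicate 1 of Rnf2delta 8 did.

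In E12.5 males 0 of the 85 passed, where 0.962% of all genes did, and 6 (7.06%, against 8.56% of all genes) had an unadjusted p under 0.05. Cox8c was at 3.99, 3.88 and 3.86 in controls and at 4.32, 4.54 and 5.17 in Rnf2delta, without overlap (0.77 ± 0.22, adjusted p = 0.110). That p was 0.0474 at its lowest over the settings tried, and it passed only in the fit without the arrays of E12.5 females. With the compared groups fitted alone its p was 0.112, and the 1 gene that passed was Cox7b2, a testis isoform of complex IV (adjusted p = 0.0306). The next smallest p was that of Ndufa11, a membrane subunit of complex I (0.37 ± 0.12, adjusted p = 0.241). The difference between sexes in the genotype effect was tested directly: 0 of 85 genes passed at E11.5, where 0% of all genes did, and 0 at E12.5, where 0.296% did, with 1 (1.18%, against 1.77% of all genes) and 11 (12.9%, against 13.39%) at an unadjusted p under 0.05. Atp5pb had the smallest p at E12.5 (1.08 ± 0.26 more in females, adjusted p = 0.0560), followed by Atp5h (0.57 ± 0.16, adjusted p = 0.110). At E11.5 the smallest were those of Atp5k (0.76 ± 0.24) and Uqcrh (0.28 ± 0.17), both with an adjusted p of 0.9999. The difference between stages passed for 0 genes in females (0.145% of all) and 0 in males (0% of all), with 10 (11.8%, against 11.1% of all genes) and 2 (2.35%, against 2.38%) at an unadjusted p under 0.05. In females the smallest p values belonged to Atp5pb (1.01 ± 0.26) and Ndufa8 (0.70 ± 0.18), each with an adjusted p of 0.100, and in males to Ndufa11 (0.40 ± 0.18) and Cox7b2 (0.88 ± 0.40), each at 0.99996. Leaving out single E12.5 female arrays let up to 2 genes pass in the E12.5 sex difference and in the female stage difference.

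**Figure D3:**
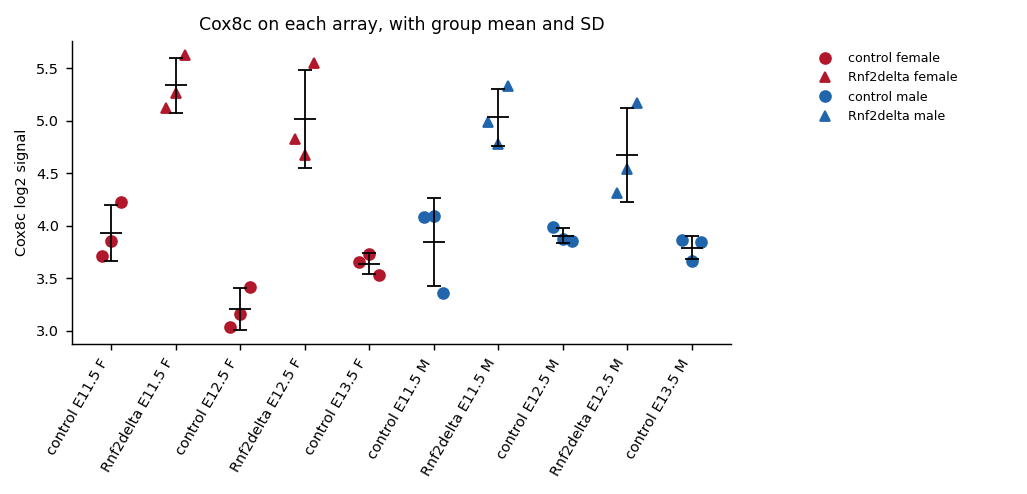
Cox8c log2 signal (vertical axis) on each of 30 arrays in 10 groups (horizontal axis); circles are control, triangles Rnf2delta, red female, blue male, and black bars are the group mean and SD of 3 arrays. In each of the 4 matched pairs every Rnf2delta array lies above every control array.

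Between E11.5 and E13.5 in control females, complexes I to III held more genes that rose than fell, and the ATP synthase more that fell than rose. This comparison was added after the E12.5 female arrays were seen to stand apart. Its differences use no E12.5 array, but the spread comes from all 30; with the 6 E12.5 female arrays left out, 25 genes rose and 11 fell, and all 30 calls given here were among them. Of the 85 genes, 21 rose and 9 fell. All genes gave 14.2% risen and 12% fallen, and the 516 genes of high signal gave 19.4% and 26.0%. By complex, 9 of 33 genes rose and 2 fell in complex I, 3 of 4 rose in complex II, and 4 of 8 rose in complex III, with 0 fallen in the latter 2. In the ATP synthase 3 of 17 rose and 6 fell, and in complex IV 2 of 19 rose and 1 fell. Among the ATP synthase calls, only those of Atp5a1 and Atp5d (fallen) and of Atp5e and Atp5pb (risen) passed in every setting tried. Its larger number of falls thus rests on calls that some settings lost. Median changes were 0.23 in complex I, 0.46 in complex II, 0.28 in complex III, 0.05 in complex IV and -0.19 in the ATP synthase. The median over all genes was -0.000845, and the difference between complexes was not tested.

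Uqcrc1, a core subunit of complex III, was at 7.46, 7.40 and 7.12 in E11.5 females and at 8.40, 8.51 and 8.25 at E13.5 (1.06 ± 0.13, adjusted p = 6.62e-07). Its partner Uqcrc2 rose by 0.85 and the hinge subunit Uqcrh by 0.62. Sdhb was at 7.70, 7.40 and 7.55 and then at 8.50, 8.60 and 8.44 (0.97 ± 0.13, adjusted p = 3.47e-06), with the flavoprotein Sdha up by 0.53 and the membrane anchor Sdhc by 0.39. In complex II only Sdhd, the other anchor, did not pass. Ndufs1, an iron-sulfur subunit of the NADH-oxidising arm, was at 5.73, 5.77 and 5.63 and then at 6.48, 6.70 and 6.52 (0.86 ± 0.16, adjusted p = 0.000134). Ndufa8 (0.79), Ndufv2 (0.69) and Ndufv1 (0.60), of which the latter 2 belong to the same arm, also rose, while Ndufb10 (-0.51, lost without replicate 2 at E11.5 or replicate 1 or 2 at E13.5) and Ndufa3 (-0.47) fell. The groups did not overlap for the genes whose arrays are listed.

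Atp5pb was at 7.15, 7.27 and 7.25 in E11.5 females and at 8.23, 8.52 and 8.16 at E13.5 (1.08 ± 0.18, adjusted p = 4.29e-05), and its 2 probe sets rose by 1.082 and 1.004. Atp5d, the delta subunit, was at 7.67, 7.55 and 7.62 and then at 6.65, 6.64 and 6.74 (-0.94 ± 0.17, adjusted p = 9.54e-05). Atp5a1, the alpha subunit of the catalytic head, went from 9.68, 9.60 and 9.58 to 9.10, 9.11 and 9.10 (-0.52 ± 0.11, adjusted p = 0.000512). Neither pair of groups overlapped in these genes. Atp5g2 (-0.46), Atp5h, an outer stalk subunit (-0.43), Atp5mpl (-0.33) and Atp5md fell as well. For Atp5md (-0.62 ± 0.12, adjusted p = 0.000269) another probe set rose by 0.60 and the call was lost on the mean of its probe sets (adjusted p = 0.154), so its direction is unsettled. Atp5g2's other probe sets were at 0.30 and 0.18, on the other side of 0. Atp5e (0.49) and Atp5c1 (0.33), the epsilon and gamma subunits, rose. Atp5b, the beta subunit, did not pass (-0.23, adjusted p = 0.113).

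Control males changed fewer genes over the same days: 8 rose and 6 fell, where 5.32% of all genes rose and 5.64% fell. Among the 516 genes of high signal, 10.9% rose and 7.36% fell in males. Atp5pb was at 7.32, 6.88 and 7.03 at E11.5 and at 8.03, 7.64 and 7.86 at E13.5 (0.77 ± 0.18, adjusted p = 0.00512). Ndufs1 went from 5.87, 5.74 and 5.75 to 6.54, 6.43 and 6.46 (0.69 ± 0.16, adjusted p = 0.00377). Both, like Sdhb (0.66), rose as in females, without overlap between stages. Cox6b2, a testis isoform of complex IV, rose by 0.74 ± 0.19 (adjusted p = 0.00874; 0.0690 without replicate 3 at E13.5), from 7.85, 7.93 and 7.78 to 8.70, 8.23 and 8.86. Sdhaf4, an assembly factor of complex II, rose by 0.70 ± 0.17 (adjusted p = 0.00748; 0.0770 on the mean of its probe sets). These last 2 calls each rest on 1 array or 1 probe set.

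Among the genes that fell in males, Atp5d went from 7.78, 7.70 and 7.69 to 6.79, 7.17 and 6.93 (-0.76 ± 0.17, adjusted p = 0.00270). Atp5k, a small membrane subunit, fell by 0.73 ± 0.17 (adjusted p = 0.00396; 0.0534 without replicate 1 at E11.5). Cox7a1 fell by 0.58 ± 0.13 (adjusted p = 0.00223) and Atp5j2, another small membrane subunit, by 0.43 ± 0.14 (adjusted p = 0.0384; lost in 7 settings). The count of 14 was 9 without replicate 1 at E11.5 or replicate 1 at E13.5 and 8 without replicate 3 at E13.5. As in females, the ATP synthase had more genes that fell (5) than rose (2), and complex III, with 8 of 8 above 0 (median 0.23), had 0 past the test. Among those ATP synthase calls only Atp5d, which fell, and Atp5pb, which rose, passed in every setting. The male and female comparisons share no array. Over the 85 genes their changes had Pearson r = 0.65 (0.56 over all 15180 genes), as a description across genes, and 56 of 85 had the same sign. Of the called genes, 10 were called in both sexes, which is 33.3% of the 30 in females and 71.4% of the 14 in males. Over all genes the calls shared by both sexes were 24.9% of those in females and 59.8% of those in males. Of the 10, 6 rose in both, 3 fell in both and 1, Cox7a1, went opposite ways.

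**Figure D4:**
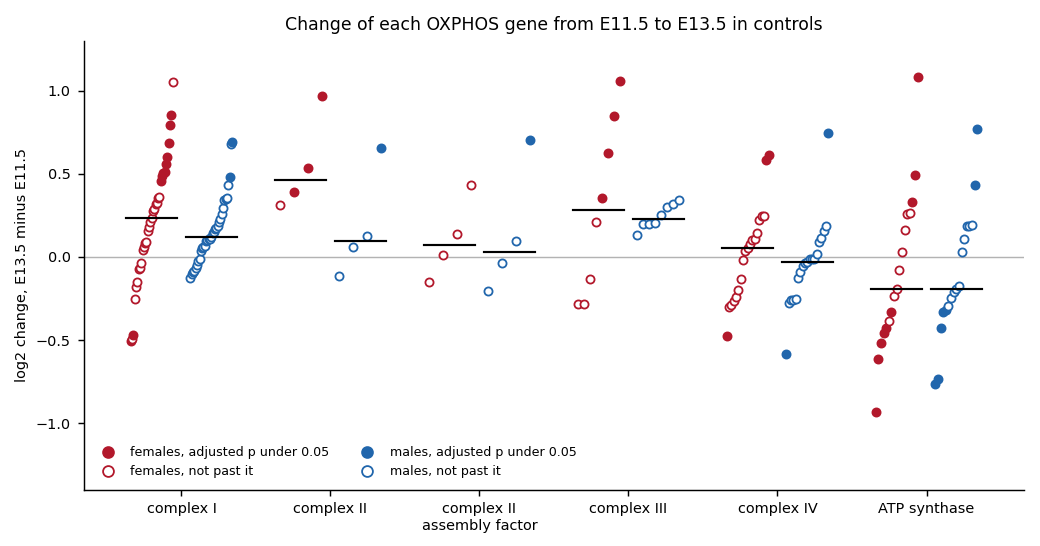
Log2 change from E11.5 to E13.5 in controls (vertical axis) of each of 85 OXPHOS genes, by complex (horizontal axis) and sex (red females, blue males); filled points passed an adjusted p of 0.05 and black bars are medians. Medians lie above 0 in complexes I to III in both sexes and at -0.19 in the ATP synthase in both.

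Through E12.5, more OXPHOS genes were called lower than higher in females at the first step, and more higher than lower at the second. From E11.5 to E12.5, 3 OXPHOS genes rose and 20 fell, where 4.56% of all genes rose and 14.2% fell, and 31.8% of the high-signal genes fell. Atp5d was at 5.65, 6.59 and 6.56 at E12.5 (-1.35 ± 0.17, adjusted p = 2.44e-06). Atp5h, the d subunit of the outer stalk, went from 10.01, 10.24 and 10.11 to 9.16, 9.31 and 9.37 (-0.84 ± 0.12, adjusted p = 9.20e-06), and another of its probe sets gave the same -0.84 and the remaining one -0.28. Uqcr10, a small subunit of complex III, went from 8.59, 8.73 and 8.64 to 7.77, 7.88 and 8.08 (-0.74 ± 0.11, adjusted p = 3.56e-05). All 3 genes were lower on every E12.5 array than on any E11.5 array, and with Atp5a1 (-0.71) they passed in every setting tried. Cox8c fell by 0.72 ± 0.22 (adjusted p = 0.0207), a call lost in 4 settings. Against this direction Ndufv2, a flavoprotein-arm subunit of complex I, went from 6.28, 6.38 and 6.10 to 7.70, 7.12 and 6.86 (0.97 ± 0.16, adjusted p = 0.000110) and passed in every setting. Atp5o (0.42, adjusted p = 0.0105) and Atp5j2 (0.39, adjusted p = 0.0410) rose too, with calls lost in 3 and 7 settings. The count of 23 was 12 without replicate 1 of the E12.5 controls, 10 with array weights and 6 in the fit of the 2 groups alone.

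From E12.5 to E13.5, 34 genes rose and 1 fell in control females, where 17% of all genes rose and 4.81% fell, and 30.6% of the high-signal genes rose. They were 16 of 33 in complex I, 3 of 4 in complex II, 5 of 8 in complex III, 4 of 19 in complex IV, 5 of 17 in the ATP synthase and Sdhaf4. Ndufa8 was at 7.26, 7.33 and 7.27 at E13.5, above its E12.5 values given earlier (1.51 ± 0.13, adjusted p = 5.88e-09). Ndufs5, a complex I subunit facing the intermembrane space, went from 7.26, 7.41 and 6.86 to 9.08, 9.02 and 9.06 (1.88 ± 0.41, adjusted p = 0.00126). Ndufv1, the subunit that binds NADH, went from 7.10, 7.41 and 6.99 to 8.31, 8.29 and 8.13 (1.08 ± 0.14, adjusted p = 3.60e-06), and Atp5pb rose by 1.10 ± 0.18 (adjusted p = 6.48e-05). The stages did not overlap for these 4 genes, and 22 of the 35 calls passed in every setting tried. The 1 gene that fell was Atp5md, whose probe sets disagree in this comparison too (-0.52 and -0.97 against 0.67; adjusted p up to 0.0821).

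The 2 steps share the E12.5 female arrays, so a low value there enters both with opposite signs, and the changes are given side by side with those over E11.5 to E13.5. Ndufa8 changed by -0.71, 1.51 and 0.79, and Ndufv1 by -0.48, 1.08 and 0.60, all past the threshold. Atp5a1 changed by -0.71, 0.19 and -0.52, of which the second did not pass. Uqcrc1 changed by 0.16, 0.90 and 1.06 and Sdhb by -0.05, 1.01 and 0.97, and in both the first did not pass.

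In control males both steps were small. From E11.5 to E12.5, 4 genes rose and 1 fell (0.962% and 1.65% of all genes, 3.49% and 2.91% of high-signal genes). Ndufs1 was at 6.53, 6.52 and 6.503 at E12.5, above all E11.5 arrays (0.74 ± 0.16, adjusted p = 0.0106), and passed in every setting. Atp5pb (0.75 ± 0.18, adjusted p = 0.0203), Sdhb (0.55 ± 0.13, adjusted p = 0.0209), Ndufa8 (0.52 ± 0.13, adjusted p = 0.0219) and Atp5d (-0.64 ± 0.17, adjusted p = 0.0330) were also called, and each was lost without 1 of several arrays. The count of 5 was 1 to 3 without any 1 of the 6 arrays, 12 with array weights and 8 without the E12.5 female arrays. From E12.5 to E13.5, 0 genes passed in males (1.1% of all genes did), with 7 (8.24%, against 9.97% of all genes) at an unadjusted p under 0.05. With array weights 1 gene passed, as did 3.004% of all genes. The smallest p values at that step were those of Cox6b2 (0.54 ± 0.19, adjusted p = 0.214) and Atp5g1 (0.29 ± 0.12, adjusted p = 0.334), one of the genes for the c-ring of the ATP synthase.

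**Figure D5:**
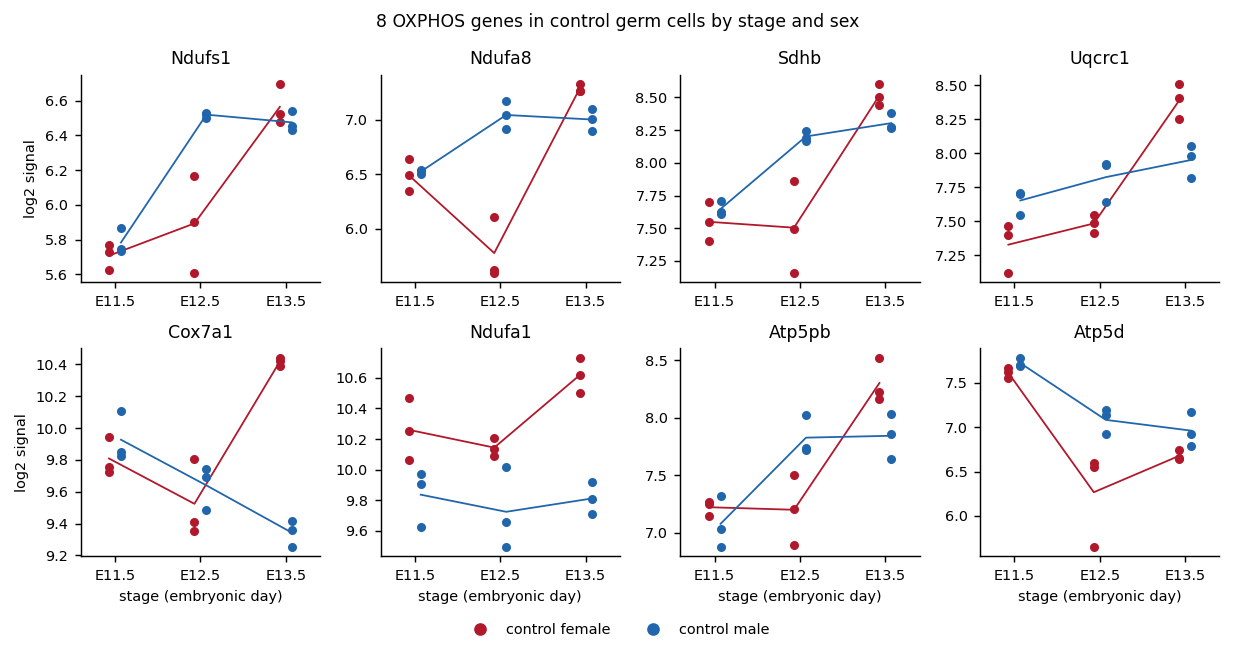
Log2 signal (vertical axes, each with its own scale) of 8 OXPHOS genes in control germ cells at E11.5, E12.5 and E13.5 (horizontal axis); points are arrays, 3 for each sex and stage, and lines join group means (red female, blue male). Ndufs1, Ndufa8, Sdhb and Atp5pb end higher than they start in both sexes, Atp5d ends lower in both, Cox7a1 ends at 10.4 in females and 9.34 in males, and Ndufa1 means are higher in females at each stage.

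The sexes did not differ past the threshold at E11.5 in any of the 85 genes (0.25% of all genes did), and 9 (10.6%, against 8.44% of all genes) had an unadjusted p under 0.05. The smallest were those of Ndufb11 (0.40 ± 0.11 higher in females, adjusted p = 0.177) and Atp5k (-0.54 ± 0.17, lower in females, adjusted p = 0.259). At E12.5, 4 genes were higher and 27 lower in females than in males, where 4.31% of all genes were higher and 14.7% lower, and 35.5% of high-signal genes were lower. Ndufa8 (-1.27 ± 0.13, adjusted p = 8.15e-08) and Ndufv1 (-0.82 ± 0.14, adjusted p = 0.000122) were lower on all 3 female arrays in every setting; male signals were 7.04, 7.18 and 6.91 for Ndufa8 and 8.05, 8.09 and 7.81 for Ndufv1. Atp5d (-0.82) and Ndufb7 (-0.71) were lower too and were lost in the fit of the 2 groups alone. Ndufv2 (0.58), Ndufb11 (0.54), Ndufa1 (0.42) and Atp5g3 (0.30) were higher. The count of 31 was 14 without replicate 1 of the females and 20 without replicate 1 of the males, and 6 in the fit of the 2 groups alone.

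At E13.5, 8 genes were higher and 3 lower in females (7.91% and 8.37% of all genes, 6.78% and 15.9% of high-signal genes). Without the arrays of E12.5 females the 11 were called too, among 15. Cox7a1, the muscle and heart isoform of complex IV subunit 7a, was at 10.42, 10.39 and 10.44 in females and at 9.42, 9.36 and 9.26 in males (1.08 ± 0.13, adjusted p = 4.61e-07). Uqcrc2 was at 9.03, 9.04 and 8.998 in females and at 8.58, 8.38 and 8.43 in males (0.56 ± 0.12, adjusted p = 0.00178). Ndufa7, an accessory subunit of complex I, was at 6.63, 6.62 and 6.48 in females and at 6.97, 7.21 and 7.25 in males (-0.56 ± 0.15, adjusted p = 0.00665). The sexes did not overlap for these 3, and the calls stayed in every setting. Uqcrq was lower in females (-0.48 ± 0.15, adjusted p = 0.0276) but was lost without any 1 of the 6 arrays, and leaving out any 1 of them brought the count of 11 to 6 or 7.

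The X-linked complex I genes Ndufa1 and Ndufb11, both accessory subunits, were higher in females at E12.5 and E13.5. Ndufa1 was at 10.06, 10.47 and 10.25 in E11.5 females and at 9.63, 9.91 and 9.97 in males; at E13.5 it was at 10.50, 10.73 and 10.62 and at 9.92, 9.71 and 9.81. The differences were 0.42 ± 0.15 (adjusted p = 0.343), 0.42 ± 0.15 (adjusted p = 0.0458, lost in 7 settings) and 0.81 ± 0.15 (adjusted p = 0.000270) at E11.5, E12.5 and E13.5. Ndufb11 differed by 0.40 ± 0.11, 0.54 ± 0.11 (adjusted p = 0.000823) and 0.53 ± 0.11 (adjusted p = 0.00120), and its sexes did not overlap at any stage. These values come from the probe set with a mean of 8.95. Another Ndufb11 probe set, with a mean of 4.05, had r = 0.605 with it over the 30 arrays. Its difference between the sexes is not given here. Cox7b, X-linked in complex IV, did not pass at any stage (0.21, 0.17 and 0.11) on the probe set read. Another Cox7b probe set, with a mean of 9.41, had r = 0.806 with that one, and its sex difference is not given either. Chromosome assignments come from RefSeq's GRCm38.p6 table and are those of the gene. Where the probe set read lies was not checked.

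Whether stage changes differed by sex was tested directly. From E11.5 to E13.5, 4 genes had a more positive change in females than in males, and 0 a more negative one (5.28% of all genes passed in either direction): Cox7a1 (1.19 ± 0.18, adjusted p = 0.000114), Uqcrc1 (0.76 ± 0.19, adjusted p = 0.0133), Uqcrc2 (0.65 ± 0.17, adjusted p = 0.0254) and Atp5j2 (0.69 ± 0.19, adjusted p = 0.0313). The first 2 passed in every setting, and the count was 2 without E11.5 female replicate 3, E11.5 male replicate 1, E13.5 female replicate 2 or E13.5 male replicate 3. Without the 6 E12.5 female arrays it was 8, with 6 more positive and 2 more negative in females. The steps through E12.5, which use the arrays that stand apart, gave 5 genes with a more negative change in females at the first step (3.34% of all genes passed) and 17 with a more positive one at the second (6.45%). Ndufa8 led both, with -1.23 ± 0.18 (adjusted p = 0.000153) and then 1.55 ± 0.18 (adjusted p = 5.85e-06).

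Tissue-restricted isoforms are set here beside their widespread partners. Cox7a1 rose by 0.61 ± 0.13 in females from E11.5 to E13.5 (adjusted p = 0.000477), from 9.95, 9.73 and 9.75, and fell in males, from 9.85, 9.83 and 10.11, while Cox7a2 passed in neither sex (-0.20 and -0.13). Cox6b2 rose in both sexes (0.58 in females, adjusted p = 0.0207), while Cox6b1 passed in neither (-0.27 and -0.26) unless the E12.5 female arrays were left out, when it passed in females. Cox8c passed in neither sex by stage from E11.5 to E13.5 (-0.29 and -0.05), and its partner Cox8a passed in none of the 4 genotype comparisons (-0.27 to 0.04). Cox7b2 had an adjusted p of 0.293 or more in all genotype comparisons when all 30 arrays were fitted (-0.67 to 0.70), and the arrays of E11.5 Rnf2delta males alone ran from 3.64 to 5.01. Cox4i2, Cox6a2 and Cox8b, with mean log2 signals of 2.37, 3.03 and 2.23, lay near the array medians and passed in no comparison. Atp5g1, Atp5g2 and Atp5g3 encode the same mature c subunit; Atp5g1 rose by 0.48 (adjusted p = 0.00344) in females from E12.5 to E13.5, where Atp5g2 (-0.33) and Atp5g3 (0.02) did not pass.

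Among widely used core subunits, Uqcrfs1, the Rieske iron-sulfur protein of complex III, passed in none of the comparisons between 2 groups when all 30 arrays were fitted. Cox5a, a matrix-side subunit of complex IV, fell in females from E11.5 to E13.5 (-0.47, adjusted p = 0.0212), and Cox4i1 did not pass there (0.25) unless the E12.5 female arrays were left out. Sdha and Sdhb both rose in females and only Sdhb passed in males.

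Other genes of the pathway were read from lists of the same kind. Of 29 assembly factors, 11 rose and 1 fell in females from E12.5 to E13.5 (median 0.42), with Cox10, which makes the haem of complex IV, at 1.01, Uqcc2 at 0.90 and Acad9 at 1.05. Over all genes 17% rose and 4.81% fell at that step. Over E11.5 to E13.5 the list of assembly factors had 3 up and 2 down in females and 1 up and 3 down in males. Over those days 14.2% of all genes rose and 12% fell in females, and 5.32% rose and 5.64% fell in males. These shares apply to the E11.5 to E13.5 counts of each list below. Ndufaf3, a complex I factor, fell in both (-0.98 and -0.71), and Atpaf1, a factor of the ATP synthase head, rose in females (1.16). Of 17 tricarboxylic acid cycle genes, 6 rose and 1 fell in females over E11.5 to E13.5, and 0 rose and 2 fell in males. Of 34 mitochondrial ribosomal proteins, 7 rose and 6 fell in females and 7 rose and 2 fell in males. Of 8 electron carriers and related genes outside the naming rule, 4 rose and 1 fell in females (Etfdh, which feeds electrons to ubiquinone, by 1.15), and 0 passed in males. Of 11 regulators of mitochondrial biogenesis, 1 rose and 3 fell in females and 1 rose and 1 fell in males. For comparison, 22 cytosolic ribosomal proteins gave 2 up and 2 down in females and 0 up and 1 down in males. In the E12.5 genotype comparison in females, the lists had 1 of 8, 1 of 17, 2 of 29, 1 of 11 and 1 of 34 genes higher for carriers, cycle genes, assembly factors, regulators (Gabpa, 0.71) and mitochondrial ribosomal proteins, and 0 of 22 cytosolic ribosomal proteins, where 7.73% of all genes were higher. In that list of mitochondrial ribosomal proteins 1 gene was lower, and 0 genes of the other lists were, where 2.16% of all genes were lower.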

How the data were processed

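The authors deposited log2 signals of 34760 probe sets on 30 Affymetrix arrays, and the submitters' processing notes name R 2.15 and affy 1.36. How background was corrected and arrays normalized, and the genome build, is not given in the sources used here. Array medians lay between 2.52 and 2.66, so the table was taken as already normalized. Signals near the lower end compress differences, and 3 arrays per group limit the precision.

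Gene names come from the platform annotation, with symbols updated through Entrez identifiers (all 85 genes matched). In 17 genes with several probe sets, the highest mean decided which was read. Probe sets of Atp5md, Atp5g2 and Atp5l disagreed, with r to the one read as low as -0.732, -0.147 and -0.205. Whether any probe set reads a copy elsewhere in the genome was not checked. A gene was tested if 3 arrays exceeded their 40th percentile. All 30 arrays entered a single limma model (version 3.58.1 under R 4.3.3) that gave each group its own mean (20 residual degrees of freedom), and comparisons were two-sided contrasts of these means, with Benjamini-Hochberg adjustment over 15180 genes and a threshold of 0.05. The fit was also run on simulated data in which each gene had the same spread in all groups. That run cannot show how the fit behaves where some groups vary more than others. Genes named in full were up to 4 each way with the largest changes among those past the threshold without overlap, or the 2 smallest p values where none passed, plus fixed core subunits and isoforms. The genes and lists were chosen with earlier results of these data known.

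Replicate numbers are shared between groups. The numbers were read as a sign of pairing where the deviations of every same-numbered pair correlated above 0.1. This held only in E11.5 males across genotypes (r = 0.160, 0.124 and 0.104). In E12.5 males r was 0.184, 0.0965 and 0.293, so the 0.0965 alone kept that comparison out. The main fit used no pairing, so its p-values for genotype in males do not account for any. The replicate block was a separate fit over all groups, and it left Cox8c called in E11.5 males. Pairs within E11.5 males were not fitted on their own, so whether Cox8c passes in a paired fit was not tested. Alternatives were array weights, the compared groups alone, quantile normalization, the mean of all probe sets, no filter or a 60th percentile filter, trend and robust fitting, a replicate block, no E12.5 female arrays and each array left out in turn. E11.5 against E13.5 was added after seeing the data. Promoter letters come from a RefSeq table, which has no entry for Cox8c.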

Additional observations from a re-analysis of the deposited data

Results flagged for a closer look

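The results below stood out because the change between stages in control females differed from that in control males by a test of the difference itself. Values are the female change minus the male change on the log2 scale, and the cause was not tested.

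From E11.5 to E12.5, 5 OXPHOS genes differed, all with a more negative change in females: Ndufa8 (-1.23), Uqcr10 (-0.89), Atp5h (-0.79), Ndufb7 (-0.73) and Ndufa4. From E12.5 to E13.5, 17 differed, all with a more positive change in females, led by Ndufa8 (1.55), Cox7a1 (1.19), Ndufb7 (1.15) and Atp5pb (1.09). Both use the E12.5 control female arrays, whose 75th percentiles of signal and median OXPHOS deviations were the lowest.

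From E11.5 to E13.5, a difference between other groups in which those arrays enter the pooled spread only, 4 differed, all more positive in females: Cox7a1 (1.19), Uqcrc1 (0.76), Atp5j2 (0.69) and Uqcrc2 (0.65). Without the E12.5 female arrays 8 differed, these 4 among them, 6 more positive and 2 more negative in females. Cox7a1 was the 1 gene called in both sexes with opposite signs.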

How the results depend on the processing

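No gene picked for its large change or small p value reversed its direction under any setting, in the comparison it was picked for. The settings included the mean of all probe sets but no other probe set alone, so a reversal on a single probe set would not be counted. Atp5md was a picked gene, and another of its probe sets went the other way, as given above. Other genes named in the text, such as Atp5g2 with its disagreeing probe sets, were not in this count. Of 1269 values for the picked genes under alternatives, 1151 kept their direction and side of the threshold, 110 lost the call and 8 gained one. Counts of genes past the threshold that moved by over 1.5 times were as follows. With array weights they were 5 for genotype in E12.5 females, 10 (E11.5 to E12.5 females), 12 (E11.5 to E12.5 males), 1 (E12.5 to E13.5 males), 15 (sex at E12.5) and 8 (sex by stage, E11.5 to E13.5). With only the compared groups fitted they were 1 (genotype, E12.5 females), 1 (genotype, E12.5 males), 6 (E11.5 to E12.5 females), 22 (E12.5 to E13.5 females), 6 (sex at E12.5), 2 (sex by stage, first step) and 9 (second step). With trend and robust fitting they were 8 (E11.5 to E12.5 males), 1 (genotype by sex at E12.5) and 9 (sex by stage, first step). Without the E12.5 female arrays they were 1 (genotype, E12.5 males), 8 (E11.5 to E12.5 males) and 8 (sex by stage, E11.5 to E13.5). The fit of the compared groups alone has fewer degrees of freedom and takes its spread from those groups only. Over all genes it called 54 by genotype in E12.5 females, against 1502 in the main fit. From E11.5 to E12.5 in control males it called 781, against 397 in the main fit. The cause of the moves was not tested.

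With each array left out in turn, counts ranged over 1 to 1 and 0 to 1 for genotype at E11.5 (females, males), 8 to 17 and 0 to 0 at E12.5, 12 to 24, 32 to 36 and 22 to 28 for the female stage steps and E11.5 to E13.5, and 1 to 3, 0 to 0 and 8 to 11 for the male ones. They were 0 to 0, 14 to 31 and 6 to 7 for sex at E11.5, E12.5 and E13.5, 0 to 0 and 0 to 2 for genotype by sex at E11.5 and E12.5, 0 to 2 and 0 to 0 for genotype by stage (females, males), and 4 to 9, 10 to 20 and 2 to 5 for sex by stage.

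With the replicate block, counts were 29 for sex at E12.5 (31 without), 18 for the second step of sex by stage (17 without) and 12 for E11.5 to E13.5 males (14 without), and the other counts were the same. Outside E11.5 males at least 1 same-numbered pair correlated below 0.1. Quantile normalization gave 36 genes over E11.5 to E13.5 in females, 28 up and 8 down. In all, 5 genes with mean signals under 3.1 lie where the array cannot show small changes.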
